A study of Drosophila melanogaster with 8 samples.

Results

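The genes described here encode the subunits of the proteasome, and they were chosen by name. A row of the 8 library tables was taken where the gene name began with Prosalpha, Prosbeta, or Pros, Rpn or Rpt followed by a digit. This gave 41 of the 14210 genes listed. Of these, 28 encode canonical subunits, with 7 of the alpha ring, 6 of the beta ring, 8 of the base and 7 of the lid, and the other 13 are additional copies of such subunits, many of them known in Drosophila as testis-type genes. A gene was tested when it reached 1 FPKM (fragments scaled to transcript length and to library size) in at least 2 replicates, and 28 members passed, namely 27 canonical subunits and the copy Rpt3R. The 13 members that did not pass were Prosalpha1 and 12 copies, and their values are given as measured.

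The series measured polyadenylated RNA of wild type neuroblasts and neurons from brains of Drosophila melanogaster larvae late in the third instar, and asked how the transcriptomes of the stem cells and of their differentiated daughters differ. Every animal of either group carried asense-Gal4, a driver from a proneural gene active in neural precursors, and UAS-stingerGFP, a nuclear green fluorescent protein by which cells were sorted. Eggs were laid over 24 h and the animals were then raised for 5 days at 25 °C. The 5 neuroblast and 3 neuron libraries make 3 neuroblast and 2 neuron replicates, after technical replicates of neuroblast 2, neuroblast 3 and neuron 1 are averaged. Neither the sort gates nor whether replicates came from separate dissections is stated, so a p-value here reflects only how far these samples spread, which may be technical.

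The proteasome is the protease that degrades proteins tagged with ubiquitin. Its core is a barrel in which rings of alpha subunits gate the entry to rings of beta subunits that cut the substrate, and its cap consists of a base with ATPases that unfold and thread the substrate and a lid that removes the ubiquitin chain. In proliferating cells it also degrades cyclins and other cell cycle regulators at set times, and in neurons it is known to remodel synaptic proteins.

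The markers of the labelled cell types differed between the sorted groups in the direction of the labels. The summed FPKM of 6 neuroblast markers was 1491 to 1572 in the neuroblast replicates and 44.7 to 76.5 in the neuron replicates, and that of 5 neuron markers was 10.8 to 137 and 654 to 1006. Of the neuroblast markers, mira alone stood at 734, 831 and 980 FPKM in neuroblasts. The gene ase differed least, at 105, 58.1 and 69.4 FPKM in neuroblasts and 21.3 and 46.1 FPKM in neurons. Some markers of other cells were higher in the neuron replicates, at low levels. The glial gene repo stood at 1.06, 0.529 and 0.207 FPKM in neuroblasts and 7.97 and 9.66 FPKM in neurons, and the glial genes moody and Gs2, the hemocyte gene Pxn and the tracheal gene trh were also called toward neurons, while the glial nrv2 was not called and lay higher in neuroblasts. Since moody, Gs2, Pxn and trh entered the test through their neuron values alone, their direction was close to given. The sum over 4 hemocyte markers was 0.155 to 0.695 FPKM in neuroblasts and 4.51 and 5.25 FPKM in neurons. Most of it was Pxn, at 3.90 and 4.90 FPKM in neurons. Of the others, srp lay higher in neurons and Hml and nimC1 overlapped between the groups, as did the tracheal btl. These genes were under 1 FPKM in every replicate. The part of markers of other cells in the results was not tested. Library FPKM sums ran from 449268 to 753682 in the neuroblast libraries and from 321551 to 343514 in the neuron libraries, without overlap. Fragments of genes with a single transcript ran from 2.18e+06 to 1.63e+07 in neuroblast libraries and from 953228 to 1.44e+06 in neuron libraries. A canonical member that was tested had at least 132 fragments in every library, and the library medians over these members were 337 to 14182.

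Most tested proteasome subunit genes were called higher in neuroblasts, and the log2 fold changes of most core genes were larger than those of the cap, a difference between classes that was not tested. Limma called 25 of the 28 tested members higher in neuroblasts at a Benjamini-Hochberg adjusted p under 0.05 and 0 higher in neurons, where the share called among all 7975 tested genes was 33.4% toward neuroblasts and 29.9% toward neurons. At an unadjusted p under 0.05 the member counts were 27 and 0, and those of all 7975 tested genes were 2884 and 2511. The copy Rpt3R is one of the 25, and without it 24 of the 27 tested canonical subunits were called, the exceptions being Rpn1, Rpn6 and Rpn11. All 28 had every neuroblast replicate above both neuron replicates, as 41.8% of all tested genes did. The median log2 fold change on the log2(FPKM + 1) scale, neuroblast minus neuron, was 1.97 for the core, 1.17 for the base and 1.12 for the lid, where all tested genes had 0.17. In bulk samples, fewer cells of a type and less RNA per cell cannot be told apart, and FPKM is a share of a library rather than an amount per cell.

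The count of calls depended on the neuron replicates and on the scaling. Without neuron replicate 2 limma called 11 members and without neuron replicate 1 it called 15, where the shares of all genes called toward neuroblasts were 21.0% and 22.4%. Scaling to the protein-coding sum gave 14, with 12 of the core, 1 of the base and 0 of the lid. The median log2 fold changes were then 1.21, 0.41 and 0.36 for core, base and lid. Under that scaling the median of all genes was -0.53, 21.9% of genes were called toward neuroblasts and 43.8% toward neurons, and with upper quartile scaling the shares were 26.7% and 37.9%. A further fit took neuroblast 1 and 2 against neuron 1, treated as the flow cell that both cell types share. Its median log2 fold changes were 1.50, 0.89 and 0.91 for core, base and lid. The sample labels name no flow cell, so this grouping is inferred. Neuroblast 3 and neuron 2 lie outside it. The fits on the shared flow cell or without a neuron replicate hold 1 neuron sample, which is assumed to vary like the neuroblast replicates.

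**Figure D1:**
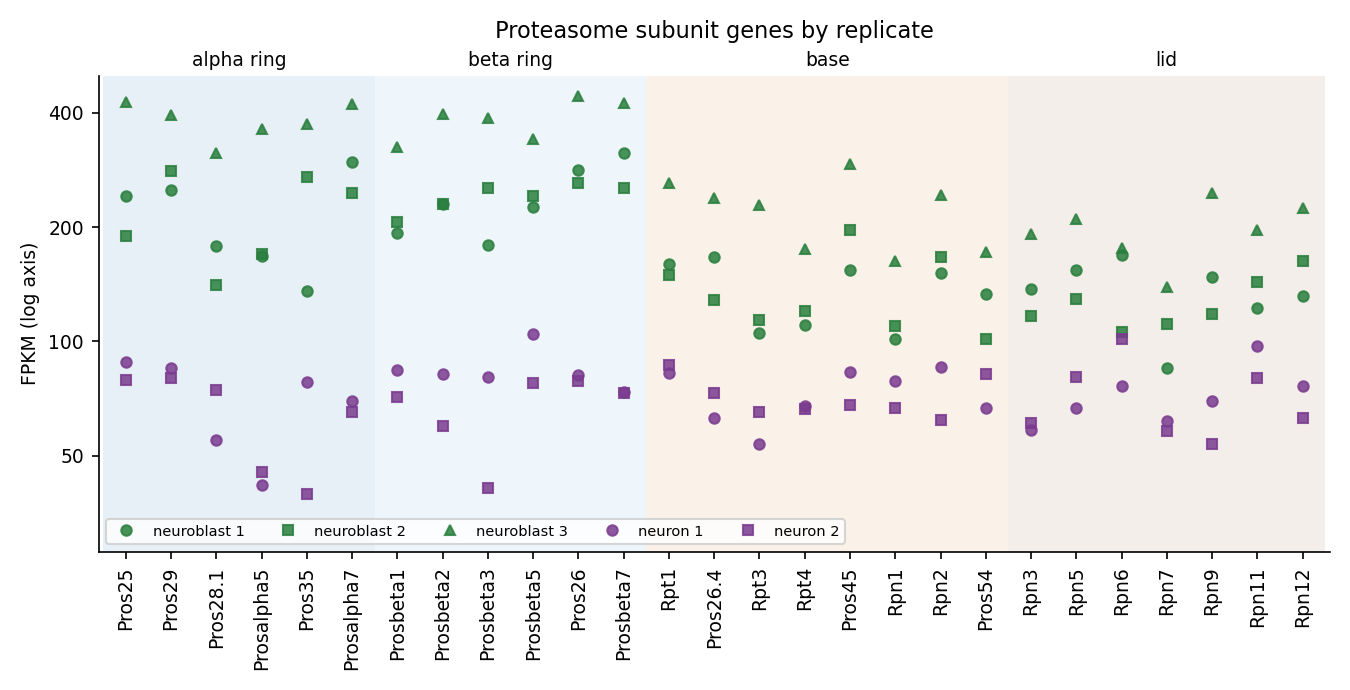
FPKM (log axis) of the 27 tested canonical subunits in each replicate, where green marks neuroblasts and purple neurons, grouped by alpha ring, beta ring, base and lid. Every green point lies above both purple points of the same gene, and the 3 neuroblast points of the core reach higher than those of the base and lid.

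The alpha ring, which forms the gate of the core, was called in full among the 6 subunits tested, with log2 fold changes of 1.62 to 2.30. Prosalpha5 (FBgn0016697, 2R, 13300269 to 13301274) had the highest value of the ring. It stood at 168, 170 and 363 FPKM in neuroblast 1, 2 and 3 and at 41.9 and 45.3 FPKM in neuron 1 and 2. The neuron replicates lay close together and far below the lowest neuroblast replicate, and the log2 fold change was 2.30 (SE 0.38, limma adjusted p 0.00224).

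Pros28.1 (FBgn0004066, X, 16170305 to 16171620), the alpha 4 subunit, had the lowest value of the ring. Its levels were 178, 141 and 313 FPKM in neuroblasts and 55.0 and 74.6 FPKM in neurons, again without overlap, and the log2 fold change was 1.62 (SE 0.38, limma adjusted p 0.00884). Its call was lost without neuron replicate 1, where limma gave an adjusted p of 0.0822. Pros25, Pros29 and Prosalpha7, which are alpha 2, 3 and 7, had log2 fold changes of 1.68, 1.86 and 2.20. Pros35, alpha 6, was the most variable of the ring, with 136, 271 and 373 FPKM in neuroblasts and 78.4 and 39.6 FPKM in neurons. Its lowest neuroblast and highest neuron replicates came close to each other, and its log2 fold change of 2.08 had an SE of 0.49. Pros25 and Pros35 both had 1.60 without neuron replicate 2, where limma gave adjusted p-values of 0.0641 and 0.0880.

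Prosalpha1 (FBgn0263121, 2R, 3714808 to 3716181) went untested. It was listed at 0.966, 0 and 1.82 FPKM in neuroblasts and at 0.102 and 0 FPKM in neurons, far below every other alpha gene. It has a near-identical neighbour, CG30382, which the reference names Prosalpha1R and which was listed at 0 in all 8 libraries. No source used here says how reads were shared between the copies, so the values of this subunit are uncertain.

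The beta ring carries the active sites, and all 6 of its members were called, with log2 fold changes of 1.55 to 2.16. Prosbeta1 (FBgn0010590, 2R, 11901309 to 11902285), which cuts after acidic residues, stood at 193, 206 and 326 FPKM in neuroblasts and 84.4 and 71.6 FPKM in neurons. Prosbeta2 (FBgn0023174, 3L, 14993036 to 14994419), which cuts after basic residues, stood at 231, 230 and 397 FPKM and at 82.1 and 60.0 FPKM. Prosbeta5 (FBgn0029134, 2R, 6707469 to 6708685), which cuts after hydrophobic residues, stood at 226, 242 and 341 FPKM and at 104 and 77.7 FPKM. In each of these 3 catalytic genes the lowest neuroblast replicate was above the highest neuron replicate. Their log2 fold changes were 1.58 (SE 0.31), 1.96 (SE 0.34) and 1.55 (SE 0.30), with limma adjusted p-values of 0.00420, 0.00251 and 0.00389, and Prosbeta5 was the lowest of the whole core.

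The structural beta genes had log2 fold changes of 1.98 for Pros26 (beta 6), 2.12 for Prosbeta7 and 2.16 for Prosbeta3, the highest of the ring. Prosbeta3 (FBgn0026380, 3R, 4831035 to 4831948) stood at 180, 253 and 388 FPKM in neuroblasts and 80.6 and 41.1 FPKM in neurons, with an SE of 0.42 and a limma adjusted p of 0.00421. Neuron 2 was well below neuron 1 for this gene, as it was for Pros35, while for Prosbeta7 the neuron replicates were nearly equal at 73.8 and 73.0 FPKM. No beta call was lost when any single replicate was left out.

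The base threads the substrate, and 7 of its 8 members were called, with log2 fold changes of 0.74 to 1.45 over all 8. The 5 ATPase genes the rule found were all called. Rpt1 (FBgn0028687) stood at 160, 150 and 261 FPKM in neuroblasts and 82.7 and 86.6 FPKM in neurons. Pros26.4 (FBgn0015282), which is Rpt2, stood at 167, 129 and 238 FPKM and at 62.8 and 73.2 FPKM. Rpt3 (FBgn0028686) stood at 105, 114 and 229 FPKM and at 53.7 and 65.4 FPKM. In all 3 the groups stayed apart, and neuroblast 3 was the highest replicate.

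Rpt4 (FBgn0028685) stood at 110, 120 and 175 FPKM in neuroblasts and 67.6 and 66.4 FPKM in neurons. Pros45 (FBgn0020369), which is Rpt6, stood at 154, 197 and 293 FPKM and at 83.3 and 68.2 FPKM. Pros45 had the highest log2 fold change of the base at 1.45 (SE 0.33, limma adjusted p 0.00766) and Rpt4 the lowest of these ATPases at 0.97 (SE 0.28, limma adjusted p 0.0202). Rpt1, Pros26.4 and Rpt3 lay between them at 1.11, 1.33 and 1.23. The locus of Rpt1 lies within that of CG17985 on the same strand, and CG17985 stood at 9.39 to 14.3 FPKM across the libraries. Pros45 overlaps CG1801 on the other strand, which stood at 0 to 0.242 FPKM. Another 10 canonical subunits overlap a neighbour on the opposite strand by 3 to 385 bases, the longest being Rpn6 with ave, which stood at 7.14 to 30.5 FPKM.

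The other base genes are the scaffolds Rpn1 and Rpn2 and the ubiquitin receptor Pros54, which is Rpn10. Rpn1 (FBgn0028695), which also docks shuttle factors that bring ubiquitylated proteins, stood at 102, 110 and 163 FPKM in neuroblasts and 78.9 and 66.9 FPKM in neurons. Its replicates did not overlap, but its log2 fold change of 0.74 (SE 0.29) had a limma adjusted p of 0.0571 and was not called. With the length trend of all genes removed it was 1.20 and was called, with a limma adjusted p of 0.0127. Rpn2 stood at 151, 167 and 242 FPKM and at 85.5 and 62.1 FPKM, with a log2 fold change of 1.31. Pros54 (FBgn0015283) stood at 133, 102 and 172 FPKM and at 66.9 and 82.2 FPKM, and its log2 fold change of 0.83 (SE 0.30) had a limma adjusted p of 0.0436. Leaving out neuroblast 1, neuroblast 3, neuron 1 or neuron 2 ended that call, with limma adjusted p-values of 0.0909, 0.0603, 0.228 and 0.108. Without neuron replicate 2 limma called 0 of the base genes, and without neuron replicate 1 it called 2.

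The lid had 5 of its 7 members called. The deubiquitinase Rpn11 (FBgn0028694, 2L, 5058404 to 5059816), which cuts the ubiquitin chain from the substrate, stood at 123, 143 and 197 FPKM in neuroblasts and 97.5 and 80.1 FPKM in neurons. These replicates did not overlap, and the log2 fold change of 0.77 (SE 0.29) had a limma adjusted p of 0.0520 and was not called. Rpn6 (FBgn0028689), a scaffold that contacts the core, stood at 169, 106 and 176 FPKM and at 76.2 and 102 FPKM. Its lowest neuroblast replicate was barely above its highest neuron replicate, and at 0.73 (SE 0.32, limma adjusted p 0.0798) it had the lowest log2 fold change of all tested members. Leaving out neuroblast replicate 2 brought it to 0.96 and a limma adjusted p of 0.0351.

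Rpn9 (FBgn0028691), another scaffold, had the highest value of the 7 lid genes found by name. It stood at 148, 118 and 246 FPKM in neuroblasts and 69.8 and 53.6 FPKM in neurons, with no overlap and a log2 fold change of 1.39 (SE 0.36, limma adjusted p 0.0125). Rpn3, Rpn5, Rpn7 and Rpn12, also structural, had log2 fold changes of 1.27, 1.12, 0.86 and 1.27. Rpn7 was not called without neuroblast replicate 2 either, with a limma adjusted p of 0.0711. Limma called 0 of the lid genes without neuron replicate 2 and 1 without neuron replicate 1. With the protein-coding sum Rpn1 and Rpn6 changed sign, to -0.02 and -0.03, and no other tested member did.

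**Figure D2:**
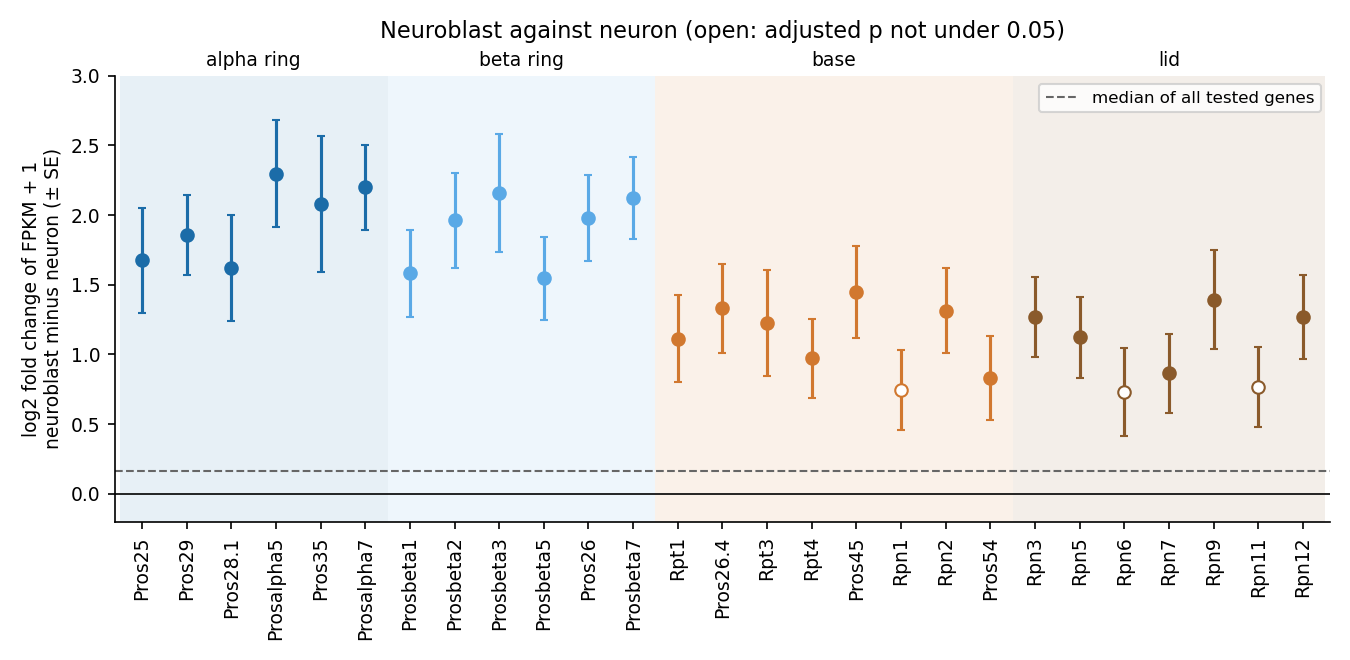
Log2 fold change of FPKM + 1, neuroblast minus neuron, with its SE from limma, for the 27 tested canonical subunits by sub-complex, where open circles were not called and the dashed line is the median of all tested genes at 0.17. The alpha and beta subunits lie between 1.55 and 2.30 and the base and lid subunits between 0.73 and 1.45, with Rpn1, Rpn6 and Rpn11 open.

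Among the subunits found by name, the lowest log2 fold change of the core, 1.55 for Prosbeta5, was above the highest of the base and lid, 1.45 for Pros45. Mov34, a lid gene (Rpn8) that the name rule does not find, had 1.62, above Prosbeta5 and Prosbeta1, so the ranges of the core and of the lid met. The values of Prosbeta5 and Pros45 lie within about 1 SE of each other, and no test was made of the classes against each other, since their members are not replicates. Taken replicate by replicate, the geometric mean of the core was 218, 224 and 382 FPKM in neuroblasts and 75.3 and 63.6 FPKM in neurons. That of the base was 133, 133 and 217 FPKM and 71.8 and 70.9 FPKM. That of the lid was 133, 125 and 195 FPKM and 71.5 and 69.5 FPKM.

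In neurons the 3 sub-complexes thus stood at similar levels per length, and in neuroblasts the core stood above the cap. The core was 1.64, 1.79 and 1.96 times the lid in the neuroblast replicates and 1.05 and 0.915 times the lid in the neuron replicates, while the base was 1.00 to 1.11 times the lid in neuroblasts and 1.00 and 1.02 times the lid in neurons. The ratio of core to lid, which any scaling of a library leaves as it is, did not overlap between the groups. With Mov34 counted in the lid and CG17331 in the core, the ratio was 1.52, 1.68 and 1.92 in neuroblasts and 1.05 and 0.901 in neurons. The median log2 fold change of the core minus that of the base and lid together was 0.85, and it was 0.80 with the subunits of other names counted in, 0.60 within the shared flow cell, 0.65 without neuron replicate 2 and 0.99 without neuron replicate 1.

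**Figure D3:**
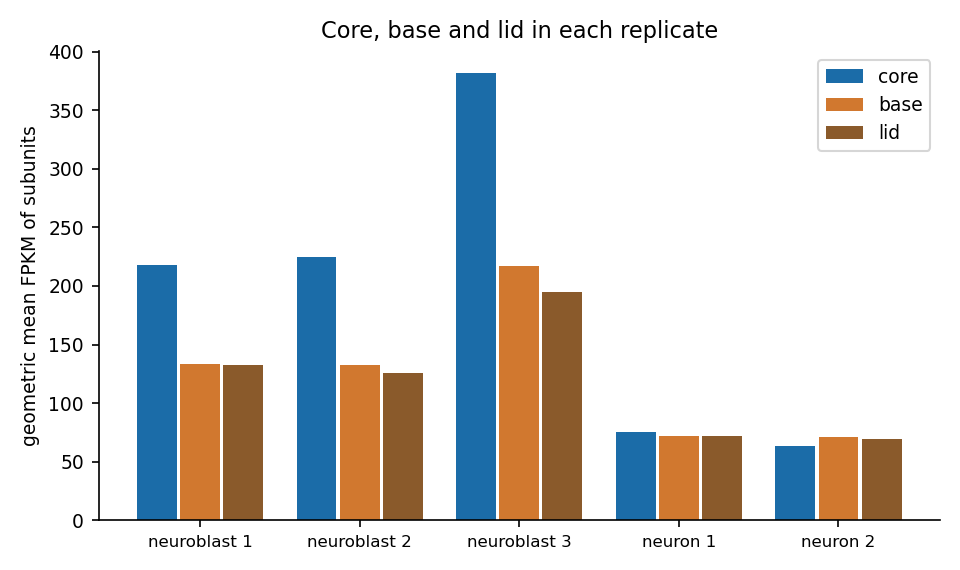
Geometric mean FPKM of the tested core, base and lid subunits in each replicate, as bars from 0 with no error bar since each bar is 1 replicate. In neuroblasts the core bars, at 218, 224 and 382, stand above the base and lid bars, and in neurons all bars lie between 63.6 and 75.3.

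The subunits varied among themselves more in neuroblasts than in neurons. The SD of the log2 level across the 27 tested subunits was 0.484, 0.492 and 0.509 in the neuroblast replicates and 0.284 and 0.317 in the neuron replicates. The highest subunit was Prosbeta7, Pros29 and Pros26 in neuroblast 1, 2 and 3, all of the core, and Prosbeta5 and Rpn6 in neuron 1 and 2. The order of the levels was alike among neuroblast replicates, with Spearman correlations across the 27 subunits of 0.70 to 0.88, and less so between the neuron replicates at 0.27. Between a neuroblast and a neuron replicate the correlations were -0.14 to 0.50. These describe genes within the same libraries, which are not independent replicates, and neuron libraries had the fewest fragments. The SDs and the correlations include the difference of level between core and cap, and neither was computed within a class.

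Proteasome levels in FPKM were highest in neuroblast 3, and so were the FPKM sums of its libraries. These sums were 551675 in neuroblast 1, 449268 and 464209 in neuroblast 2, and 740395 and 753682 in neuroblast 3. Each of the 27 subunits was higher in it than in neuroblast 1 and than in neuroblast 2, with median ratios of 1.61 and 1.65, whereas the median log2 difference of all tested genes was 0.11 and 0.26. Neuroblast 2 against neuroblast 1 had a median ratio of 1.01, with 14 of 27 above 1, and neuron 2 against neuron 1 had 0.937. Other complexes were also highest in neuroblast 3, where the median of the CCT chaperonin genes was 353 FPKM, against 212 and 221 FPKM in neuroblast 1 and 2, that of eIF3 360 against 230 and 215 FPKM, and that of the COP9 signalosome 113 against 63.4 and 61.2 FPKM. The summed neuron markers were 137, 63.2 and 10.8 FPKM in neuroblast 1, 2 and 3, so the replicate with the highest proteasome levels had the lowest neuron marker sum, and their part in the result was not tested. Without neuroblast replicate 3 limma called 24 members and 32.6% of all genes toward neuroblasts, with medians of 1.72, 0.87 and 0.93 for core, base and lid. As a share of all FPKM the 41 genes made up 0.860%, 1.04% and 1.04% in neuroblasts, the last 2 alike, and 0.619% and 0.540% in neurons.

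Transcript length moved with the difference between core and cap. The annotated transcripts of the tested core subunits are 852 to 1215 bases long and those of the base and lid 995 to 3325 bases. Across the 27 subunits the log2 fold change correlated with log10 length at a Pearson r of -0.65 and a Spearman rho of -0.71, and across 7843 tested genes with a length at -0.41 and -0.42. Within the core r was -0.16 and within the base and lid -0.07. All genes were measured in the same libraries, and these correlations are descriptions across genes.

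Among the 968 tested genes in the length range of the core the median log2 fold change was 1.02 and 50.5% were called higher in neuroblasts, against 1.97 and 12 of 12 for the core itself. Among the 4540 tested genes in the length range of the base and lid the median was 0.42 and 36.7% were called, against 1.12 and 12 of 15. The lid genes Rpn12 and Rpn11 have transcripts of 995 and 1208 bases, within the range of the core, and their log2 fold changes of 1.27 and 0.77 were below the lowest of the core. With the length trend of all genes removed, an alternative chosen after the data were seen, the medians were 1.19, 0.82 and 0.51 for core, base and lid and the difference between core and cap was 0.45. Of the core, 10 members were then called, with Pros25 at 0.84 and Prosbeta1 at 0.69 having limma adjusted p-values of 0.0508 and 0.0522. Under this alternative 4 of the base and 3 of the lid were called, and 32.4% of all genes were called toward neuroblasts.

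**Figure D4:**
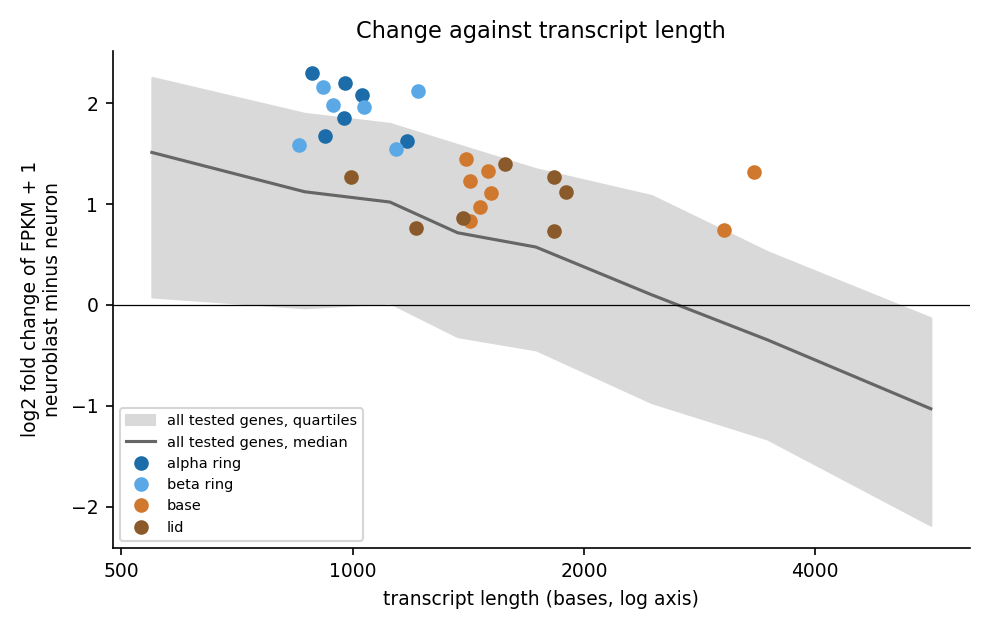
Log2 fold change of FPKM + 1, neuroblast minus neuron, of the 27 tested canonical subunits (points) against transcript length in bases (log axis), with the median (line) and quartiles (band) of all tested genes in 8 bins of length. The core points lie at 852 to 1215 bases and above the median line, which falls from 1.51 in the shortest bin to -1.03 in the longest.

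The additional copies of subunits were at or near 0 in the sorted brain cells, apart from Rpt3R. Rpt3R (FBgn0037742, 3R, 5580455 to 5581921), a copy of the base ATPase gene Rpt3, stood at 19.5, 16.2 and 35.6 FPKM in neuroblast 1, 2 and 3 and at 0.320 and 0.391 FPKM in neuron 1 and 2. All 5 neuroblast libraries were high and all 3 neuron libraries were under 1 FPKM. Its log2 fold change was 4.11 (SE 0.39, limma adjusted p 0.00055), and this understates the change, since the neuron values are below the pseudocount. The gene entered the test through its neuroblast values alone, so its direction was close to given.

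In fragments, 3282 fell on Rpt3R in the neuroblast libraries and 7 in the neuron libraries. The ratio of the pooled levels was 89.0, with a 95% exact interval of 43.1 to 221 that covers counting error only. Pooling weights libraries by depth, and the ratio of the replicate means was 66.9, or 50.3 without neuroblast 3. Relative to the level of Rpt3 in the same replicate, Rpt3R stood at 18.6%, 14.2% and 15.6% in neuroblasts and at 0.595% and 0.598% in neurons, so the proportion of Rpt3R to Rpt3 was not fixed. The files list no gene that overlaps Rpt3R.

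**Figure D5:**
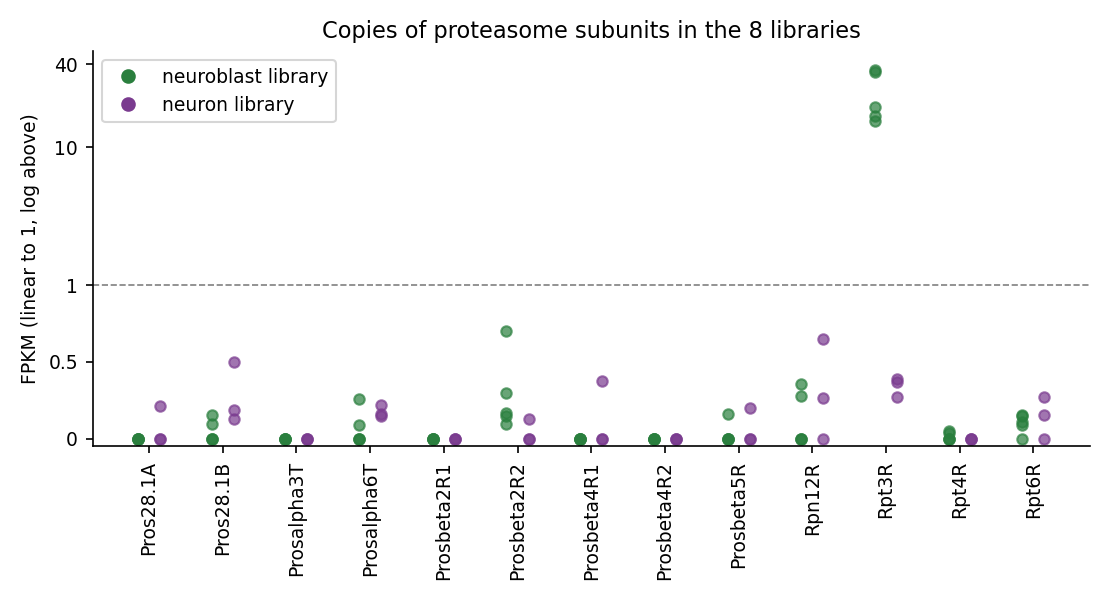
FPKM of the 13 copies in each library (linear up to 1, logarithmic above), with neuroblast libraries in green and neuron libraries in purple. Only the neuroblast libraries of Rpt3R rise above the dashed line at 1 FPKM, and all other points lie at or below 0.700.

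Of the other 12 copies, Prosalpha3T, Prosbeta2R1 and Prosbeta4R2 were listed at 0 in all 8 libraries. Pros28.1B, a copy of alpha 4, had 3 fragments in neuroblast and 6 in neuron libraries, at 0, 0.124 and 0 FPKM and at 0.315 and 0.186 FPKM. Prosalpha6T, a copy of alpha 6, had 3 and 3, at 0.262, 0.0451 and 0 FPKM and at 0.153 and 0.218 FPKM. Both lay near the level of a few fragments in either cell type. Pros28.1A and Prosbeta4R1 had 0 and 1 fragments each and were listed at 0 except in neuron 1, at 0.108 and 0.187 FPKM. Prosbeta5R had 1 and 1 and was listed at 0 except at 0.159 FPKM in neuroblast 1 and 0.1005 FPKM in neuron 1. None of the 12 reached 1 FPKM in any library.

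Prosbeta2R2, a copy of the catalytic beta 2 gene, had 21 fragments in the neuroblast libraries and 1 in the neuron libraries. Its FPKM was 0.700, 0.197 and 0.158 in neuroblasts and 0.0636 and 0 in neurons. Its neuroblast 1 value was the highest of the 12 copies. Rpn12R had 13 and 3 fragments and was listed at 0 except in neuroblast 3, at 0.316 FPKM, and neuron 1, at 0.458 FPKM. Rpt6R also had 13 and 3, at 0, 0.0981 and 0.148 FPKM in neuroblasts and 0.213 and 0 FPKM in neurons. Rpt4R had 3 and 0, with 0.0444 FPKM in neuroblast 3 alone. These fragments are spread over libraries of unequal depth in which the neuroblast libraries hold more fragments. Rpn12R lies within the locus of Sytbeta and Pros28.1A within that of CG42322, so their few fragments could belong to either gene.

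Markers of testis and male germline were read beside the copies. Of 9 such genes, Mst84Da, aly and dj were listed at 0 in every replicate. The sum of the list was 9.14, 8.22 and 11.2 FPKM in neuroblasts and 2.21 and 1.73 FPKM in neurons, made up mostly of can, a testis-specific transcription factor subunit, at 4.75, 2.47 and 4.41 FPKM in neuroblasts, and of the germline RNA helicase gene vas at 3.49, 3.54 and 3.81 FPKM. Both stood lower in neurons, can at 0.335 and 1.58 FPKM and vas at 0.167 and 0.148 FPKM. The gene bam, at 0.903, 2.03 and 2.88 FPKM in neuroblasts and 1.26 and 0 FPKM in neurons, overlapped and was not called. Since vas entered the test through its neuroblast values alone, its direction was close to given. Mst87F and Mst98Ca had higher means in neurons and ocn in neuroblasts, all under 1 FPKM. The sum, through can, vas and bam, was thus higher in the group where Rpt3R was higher. The part of these genes in the result was not tested.

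Subunits that carry other names were read in the same fit. Mov34, which is Rpn8 of the lid, stood at 197, 185 and 233 FPKM in neuroblasts and 65.4 and 66.1 FPKM in neurons. Its log2 fold change of 1.62 (SE 0.24, limma adjusted p 0.00152) lay within the range of the core. Tbp-1, the ATPase Rpt5, stood at 120, 91.9 and 165 FPKM and at 50.5 and 50.9 FPKM. The replicates of both genes did not overlap. The ubiquitin receptor gene CG13349, which is Rpn13, stood at 99.2, 80.8 and 132 FPKM and at 56.5 and 52.9 FPKM. Its log2 fold change was 0.89, that of Tbp-1 1.26 and that of CG17331, which is Prosbeta4, 1.97, and all 4 genes were called higher in neuroblasts. Without neuron replicate 1, 2 of these 4 were called, and without neuron replicate 2 only Mov34 was. CG13349 was not called without neuroblast replicate 1 either, with a limma adjusted p of 0.0600. CG31742, which the reference names Prosbeta5R2, was too low to be tested.

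CG6789, which the reference names Rpn13R after Rpn13, went the other way. It stood at 0.983, 1.22 and 0.0747 FPKM in neuroblast 1, 2 and 3 and at 13.9 and 11.2 FPKM in neuron 1 and 2. Every neuron replicate was far above every neuroblast replicate, and the log2 fold change was -3.01 (SE 0.38, limma adjusted p 0.000963). The gene passed the filter on low values through its neuron replicates, with 1 neuroblast replicate above 1 FPKM, so its direction was close to given. In fragments it had 23 in the neuroblast libraries and 129 in the neuron libraries, a ratio of pooled levels, neuron over neuroblast, of 34.2 with a 95% exact counting interval of 21.9 to 55.9. The ratio of the replicate means was 16.5, or 11.4 without neuroblast 3, whose libraries are the deepest and weigh most in the pooled level. Neuroblast 3, with the lowest neuron marker sum, also had the lowest level of CG6789, and the part of neuron RNA in these values was not tested.

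Genes that act on the proteasome were less uniform than its subunits. Of 13 tested activators, inhibitors, assembly and induction factors, 6 were called toward neuroblasts and 2 toward neurons, and the median log2 fold change was 0.65. The shares of all tested genes called were 33.4% toward neuroblasts and 29.9% toward neurons. REG, the activator ring that caps the core in place of the regulatory particle, stood at 272, 196 and 525 FPKM in neuroblasts and 43.5 and 49.2 FPKM in neurons. The groups were far apart, and its log2 fold change of 2.69 (SE 0.42, limma adjusted p 0.00179) exceeded that of every canonical subunit. CG12321 had 2.63, the deubiquitinase CG5384 (Usp14) 2.03, the deubiquitinase Uch-L3, which the reference names Uch-L5, 1.85, the F-box gene ntc 1.29 and the assembly factor CG9588 0.87. Without neuron replicate 2 neither ntc nor CG9588 was called, with limma adjusted p-values of 0.156 and 0.208, and CG9588 was not called without neuroblast replicate 2 or neuron replicate 1.

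The genes called higher in neurons were cnc and Pngl. The transcription factor gene cnc, whose vertebrate relatives induce proteasome genes, stood at 18.1, 17.5 and 10.2 FPKM in neuroblasts and 39.0 and 39.8 FPKM in neurons. Its log2 fold change was -1.36 (SE 0.32, limma adjusted p 0.00875), opposite in sign to those of the subunits. Without neuron replicate 1 or 2 it was -1.37 and -1.34, with limma adjusted p-values of 0.0637 and 0.0703, and with the length trend removed it was 0.19, with 0.516, for a transcript of 6954 bases. Pngl, which removes sugar chains from proteins bound for degradation, had -0.77 with a limma adjusted p of 0.0328 and was not called without neuroblast 1 or 2 or without neuron 1 or 2. PI31, which binds the core, had a log2 fold change of 0.65, the cnc partner maf-S 0.35 and Keap1, which holds cnc in check, -0.37, and none of them was called. Neither were rngo at 0.44 and CG8858 at -0.57, although CG8858 was called toward neurons without neuroblast replicate 3. With the length trend removed, maf-S changed sign to -0.73 and was called toward neurons, with a limma adjusted p of 0.0386.

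Of 11 tested genes that supply, shuttle or extract ubiquitylated proteins, 6 were called toward neuroblasts and 0 toward neurons, and the median log2 fold change was 1.00. Among all tested genes 33.4% were called toward neuroblasts and 29.9% toward neurons. The lowest of the list was the shuttle Ubqn, which was not called, at -0.06. Among the called were the ubiquitin fusions RpS27A (1.91) and RpL40 (1.46), the segregase TER94 (1.26) and its cofactors p47 (1.23), Ufd1-like (1.00) and CG4673 (0.92), which is Npl4. The polyubiquitin gene Ubi-p63E was not called, at 151 ± 84.0 FPKM in neuroblasts (SD, n = 3) and 133 ± 62.6 FPKM in neurons (SD, n = 2), with overlapping replicates. Uba1, the enzyme that activates ubiquitin, was not called either, at 0.32. Without neuron replicate 1 or without neuron replicate 2 limma called 0 of the list. RpL40 and CG4673 were not called without neuroblast replicate 2 either, and RpL40 not without neuroblast replicate 3.

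The authors' deposited table lists genes at an adjusted p of at most 0.00995 and gives a fold of neuroblast over neuron. It holds 12 of the 41 members, all higher in neuroblasts, among 1702 genes higher in neuroblasts and 1830 higher in neurons in the authors' deposited table as a whole. They are 10 of the 13 core genes, with log2 folds of 1.51 to 2.39 in the authors' deposited table, 1 of the 15 base and lid genes, Pros45 at 1.47, and Rpt3R at 5.91. Outside the name rule, the authors' deposited table also holds the lid gene Mov34 (Rpn8) at 1.52 and the core gene CG17331 (Prosbeta4) at 1.90. It holds CG6789 (Rpn13R) in the other direction, at -3.86. Missing from the authors' deposited table are Prosalpha1 and the catalytic genes Prosbeta1 and Prosbeta5, which had the lowest beta values here. At an adjusted p under 0.01 limma called 18 members, with 12 of the core, 3 of the base, 2 of the lid and Rpt3R, and 23.0% of all tested genes toward neuroblasts.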

How the data were processed

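Polyadenylated RNA of sorted neuroblasts and neurons was sequenced with strand marking by dUTP, per the labels' protocols. Each of the 8 deposited tables gives the FPKM of every gene, its interval bounds and its status, as the file headers name them, and the authors scaled FPKM to transcript length and mapped fragments. Of the tools used by the authors, the submitters' processing notes name DESeq 1.8.3, HTSeq, Cufflinks 1.3.0, BWA 0.6.1 and TopHat 1.4.1 without their roles. The authors' deposited table of the comparison holds mean signal per condition, a fold (ratio), its log2, p-values and adjusted p-values, per the file headers, and its condition columns give neuron as A and neuroblast as B. No source used here gives the genome build or says whether counting used the strand, so values of overlapping genes are uncertain. The deposited files' own coordinates are printed, counted from 1.

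The members and gene lists were chosen with earlier results of these data known. Technical replicates were averaged on the log2 scale, and log2(FPKM + 1) was compared between groups by a two-sided limma test (version 3.58.1, R 4.3.3) whose prior variance followed intensity. The 7975 genes that reached 1 FPKM in 2 or more replicates were tested, and p-values were adjusted over them by Benjamini-Hochberg, with calls at an adjusted p under 0.05. FPKM is not a count, so no count test was run, and the fold change understates the change of low genes. Means and SDs are over replicates. Fragments were recovered from the upper bound of the Cufflinks interval, taken as 2 SD of a count above the value, and 91.0% to 91.6% of the values below 200 came out whole, to a tolerance of 0.05, in genes with a single transcript. Intervals and low counts cover counting error only. Transcript lengths and current symbols came from an annotation of another release, 115, by identifier, and 40 of the 41 members had a current symbol. All columns could be given to a sample or comparison, so 0 were left out. Cufflinks gave 0 members a status other than OK.

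Values in every replicate are given for the catalytic beta genes, the base ATPases, the ubiquitin receptors, the lid deubiquitinase, the copies and the highest and lowest of each class. Other settings were tried for pseudocount, filter, scaling, prior variance and threshold. So were 1 library per replicate, a block on the replicate number, the shared flow cell and the omission of each replicate. Flow cells were inferred, since the sample labels name none. The protein-coding sum, the length trend and the difference of core and cap, also with the subunits of other names, were added after the data were seen. The fit was tested on simulated data. Promoter motifs were not searched, and the list named for them was not used here. A result for 1 gene of the lists is not reported here.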

Additional observations from a re-analysis of the deposited data

How the results depend on the processing

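The count of 25 members called higher in neuroblasts was 16 with no filter on low values, where 14210 genes were adjusted for, and 14 with the protein-coding sum. The share of all genes called toward neuroblasts was 13.8% and 21.9% in these settings and 33.4% in the main fit. Leaving out 1 replicate gave 11 to 25. With the replicate number as a block the member count was 18, and 7 members lost their call, where 25.7% of all genes were called toward neuroblasts. Same-numbered samples deviated in opposite directions (r -0.517 and -0.394). The deviations of 2 neuron replicates mirror each other, so these values cannot tell whether the numbers pair the samples. No member was called higher in neurons under any alternative. The members' median log2 fold change of 1.42 was 0.95 with upper quartile scaling, 0.86 with quantile normalization, 0.66 with the protein-coding sum and 0.96 with the length trend removed, where all genes had -0.26, 0.01, -0.53 and 0.28, and 1.16 to 1.58 with a replicate left out. The core minus the base and lid, 0.85, was 0.80 with the subunits of other names, 0.60 on the shared flow cell, 0.45 with the length trend removed and 0.65 to 0.99 with a replicate left out. With the length trend removed, the called gene cnc reversed to 0.19, and maf-S, not called in the main fit, went from 0.35 to -0.73. The uncalled members Rpn1 and Rpn6 changed sign with the protein-coding sum. Apart from the filter, the length trend and the omissions, where the construction of the alternative moves the value, the cause was not tested. Depth limits the copies other than Rpt3R, which had 0 to 21 fragments per cell type, too few for a comparison.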

Other observations

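Complexes related to the lid were read beside it. The lid, the COP9 signalosome and the translation initiation factor eIF3 are built on the same plan of subunits. Beside them, 33.4% of all tested genes were called toward neuroblasts and 29.9% toward neurons. Of 8 tested COP9 signalosome genes 7 were called toward neuroblasts and 0 toward neurons, and the median log2 fold change was 1.25. The level of CSN8 was 82.2 ± 38.2 FPKM over neuroblast replicates (SD, n = 3) and 15.9 ± 1.17 FPKM over neuron replicates (SD, n = 2), and CSN7 had a log2 fold change of 1.36. CSN5, the catalytic subunit and the counterpart of Rpn11, had 1.03 and a limma adjusted p of 0.0107. CSN3 was not called. Without neuron replicate 1 or 2 fewer genes of this list, and of all genes, were called, and the median of the list was 1.31 and 1.09. Of 7 eIF3 genes 4 were called toward neuroblasts and 0 toward neurons, the median was 0.73, and 0 were called with quantile normalization, with the protein-coding sum, where the median was -0.03, or without neuron replicate 2.

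Another ring complex, the CCT chaperonin, which folds actin and tubulin, had all 8 genes called higher in neuroblasts, with a median log2 fold change of 1.63. The share of all tested genes called toward neuroblasts was 33.4%. The level of Cct5 was 421 ± 111 FPKM against 96.7 ± 24.7 FPKM in neurons. The transcripts of this list are 1904 to 2165 bases long, longer than those of any core subunit. Without neuron replicate 1 or 2 fewer of them, and of all genes, were called, and the median of the list was 1.71 and 1.50.

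The ubiquitin conjugating enzymes were mostly not called, where 33.4% of all tested genes were called toward neuroblasts and 29.9% toward neurons. Of 10 tested genes 2 were called higher in neuroblasts, UbcD4 at 154 ± 6.38 against 32.8 ± 0.729 FPKM and crl with a log2 fold change of 0.88. The call of crl was lost without neuroblast replicate 1 or either neuron replicate. The vacuolar ATPase genes, another complex with many copies, went both ways, with 3 of 19 called toward neurons and a median of 0.44. Toward neuroblasts 7 of the 19 were called, near the share of 33.4% among all tested genes. The vacuolar ATPase paralogs Vha68-2 and Vha68-1 lay in opposite directions, at log2 fold changes of 4.15 and -3.18. With the protein-coding sum 4 of the 19 were called toward neuroblasts and 8 toward neurons. These counts are near the shares of all genes in that setting, 21.9% and 43.8%. Without neuron replicate 1 fewer of the list, and of all genes, were called in either direction, and the median of the list was 0.45.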
